A study of Mus musculus with 27 samples.

Results

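The PARP family genes Parp1, Parp2, Parp3, Parp4, Parp8, Parp9, Parp10, Parp11, Parp12 and Parp14 were described in chromatin-associated RNA of mouse macrophages. They were chosen by symbol, as 10 of the 45070 genes of the deposited table, and all 10 were among the 13901 genes that were tested, having 10 or more normalised read counts in 3 or more of the 27 samples. From general knowledge, 5 of them (Parp9, Parp10, Parp11, Parp12 and Parp14) were set apart as interferon-linked and the other 5 were described after them. The cells were wild type bone marrow-derived macrophages (BMDMs), primary macrophages grown from the marrow of male C57/BL6 mice aged 6 to 8 weeks. Every sample, the controls included, was first kept for 1 h in DMSO. The untreated group received nothing more, while the stimulated groups received LPS, the bacterial ligand of the receptor TLR4, or IL-4, a cytokine that acts through STAT6, each at 10 ng/ml and for 0.5, 1, 2 or 4 h. There were 9 groups of 3 replicates. The sources used here do not say whether the replicates were separate cultures, so p-values measure the spread between these samples, which may be technical.

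PARP enzymes take ADP-ribose from NAD and attach it to proteins or nucleic acids, as long chains in the case of PARP1 and PARP2 and as lone units for most of the other active members. PARP1, PARP2 and PARP3 are recruited to broken DNA and help in its repair, whereas PARP9, PARP10, PARP11, PARP12 and PARP14 are known as products of interferon-stimulated genes with parts in antiviral defence. In macrophages, LPS leads to secretion of interferon beta, which acts back on the cells through its receptor.

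The promoter windows of the members came from RefSeq (GRCm38.p6), from 250 bases before to 50 bases after each annotated start. Of the 10 members, 7 had a window in that table, and Parp9, Parp10 and Parp14 had none. On both strands, the windows were searched for an interferon-stimulated response element with the letters GAAANNGAAA, a gamma-activated site (TTCNNNGAA), a STAT6-type site (TTCNNNNGAA) and an NF-kB site. The last of these was searched as GGG, a purine, any 2 bases, 2 pyrimidines and CC. The 4 motifs were present in 3.44%, 8.30%, 6.95% and 8.46% of all 32851 windows, respectively. Counted by gene, they were present in 3.99%, 9.55%, 8.01% and 9.55% of 27025 genes. The first of these elements occurred in 2 members, Parp4 and Parp11. In Parp4 there were 2 overlapping matches, from -150 to -141 and from -144 to -135 relative to the start. Parp11 has 2 annotated starts, and the match lay in the window of the upstream one, from -44 to -35 in the reverse orientation. A gamma-activated site overlapped it there, from -37 to -29. None of the 4 motifs was found in the windows of Parp1, Parp2, Parp3, Parp8 or Parp12, nor in the other window of Parp11, which says only that these letters were absent from those 300 bases. The sequences given are the windows of Parp4 and Parp11, with the response element in capitals, and that of Parp12, an interferon-linked gene with no match. They lie at chr14:56575369-56575668 (+ strand), chr6:127446590-127446889 (+ strand) and chr6:39118300-39118599 (- strand), and each is written 5′ to 3′ on the strand of its gene.
Parp4: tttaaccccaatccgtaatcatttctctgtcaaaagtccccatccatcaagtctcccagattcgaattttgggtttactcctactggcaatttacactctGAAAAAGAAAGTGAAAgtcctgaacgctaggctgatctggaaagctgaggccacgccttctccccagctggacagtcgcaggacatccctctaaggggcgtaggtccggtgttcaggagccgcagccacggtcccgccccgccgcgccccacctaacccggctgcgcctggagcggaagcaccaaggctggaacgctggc
Parp11: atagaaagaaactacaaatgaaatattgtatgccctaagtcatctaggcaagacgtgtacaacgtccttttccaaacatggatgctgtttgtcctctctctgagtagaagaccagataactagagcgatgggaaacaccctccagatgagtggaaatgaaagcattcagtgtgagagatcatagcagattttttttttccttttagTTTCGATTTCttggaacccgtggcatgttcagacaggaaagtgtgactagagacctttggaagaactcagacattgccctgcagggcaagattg
Parp12: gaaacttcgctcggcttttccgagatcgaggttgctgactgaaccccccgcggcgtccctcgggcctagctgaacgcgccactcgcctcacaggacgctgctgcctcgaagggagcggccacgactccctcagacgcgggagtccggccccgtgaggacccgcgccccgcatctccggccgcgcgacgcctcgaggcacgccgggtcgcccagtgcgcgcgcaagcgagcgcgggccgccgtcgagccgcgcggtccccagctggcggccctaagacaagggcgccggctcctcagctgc

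All 7 macrophage markers checked (Csf1r, Adgre1, Cd68, Itgam, Lyz2, Mertk and Fcgr1) reached 10 normalised counts, with a summed level of 9579 to 17755 per sample. The summed markers of T, B, NK, mast, erythroid and endothelial cells stayed between 0 and 29, those of neutrophils between 0 and 28, of dendritic cells between 5 and 98 and of stromal cells between 9 and 102. The dendritic sums were 6 to 9 untreated, 5 to 98 with LPS and 11 to 24 with IL-4. In the same order, the neutrophil sums were 1 to 2, 1 to 28 and 0 to 9, and the NK sums 0 to 3, 0 to 29 and 0 to 1. Normalised counts summed to between 2469768 and 2790981 without LPS (untreated and IL-4) and to between 3571492 and 4058199 with it. The median gene was lower than untreated by 0.24, 0.30, 0.29 and 0.26 on the log2 scale after LPS for 0.5, 1, 2 and for 4 h, so the changes of the members stand against that shift. In these bulk samples, fewer cells of a type and less RNA per cell cannot be told apart. The summed stromal markers were at 36 to 102 in the replicate 1 libraries and at 9 to 31 in replicates 2 and 3. The part of any of these other cell types in the results was not tested, and calls that were lost or gained without the libraries of 1 replicate number are given beside each gene.

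In untreated cells, the members were present at unequal levels. Per kb of gene span, Parp8 stood at 10.9 ± 1.63 (SD, n = 3) normalised counts and Parp14 at 9.96 ± 0.989. Parp1 followed at 5.75 ± 0.878, Parp2 at 4.93 ± 0.454, Parp9 at 4.38 ± 0.277, Parp10 at 3.41 ± 0.362, Parp11 at 3.25 ± 0.375, Parp4 at 2.89 ± 0.213, Parp3 at 2.87 ± 0.261 and Parp12 at 2.46 ± 0.475. The samples of neighbours in this order overlapped, except between Parp14 and Parp1 and between Parp9 and Parp10. Per kb of exons, Parp8 was again first, at 269 ± 40.3, and Parp3 was last, at 6.38 ± 0.582. After 4 h of LPS, Parp14 led the family at 234 ± 15.6 normalised counts per kb of span and Parp1 had become the lowest, at 1.07 ± 0.425. Both orders come from the same reads and depend on which length is used.

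LPS raised the 5 interferon-linked genes, and by 2 h each of them was above every untreated sample. Against untreated, 2 of the 5 were higher and 2 lower at 0.5 h, 4 were higher and 1 lower at 1 h, and all 5 were higher at 2 and at 4 h. The share of all tested genes that was higher went, in order of time, from 19.6% to 24.8%, 26.9% and 25.9%, and the share that was lower from 34.4% to 39.0%, 39.0% and 37.6%. Some of the calls at 0.5 h and 1 h depended on the scaling, as given with each gene. Those of Parp14 at both times and of Parp9 and Parp12 at 1 h passed under both rescalings. The median change of the 5 genes went from 0.32 at 0.5 h to 1.13, 3.97 and 4.08 on the log2(value + 1) scale at 1, 2 and 4 h. Of the other 5 members, 3 were higher and 1 lower at 4 h, with a median of 1.71. The moderated F test of limma with Benjamini-Hochberg adjustment called a change over the LPS course for 10 of 10 members, where it called 87.6% of all tested genes.

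**Figure D1:**
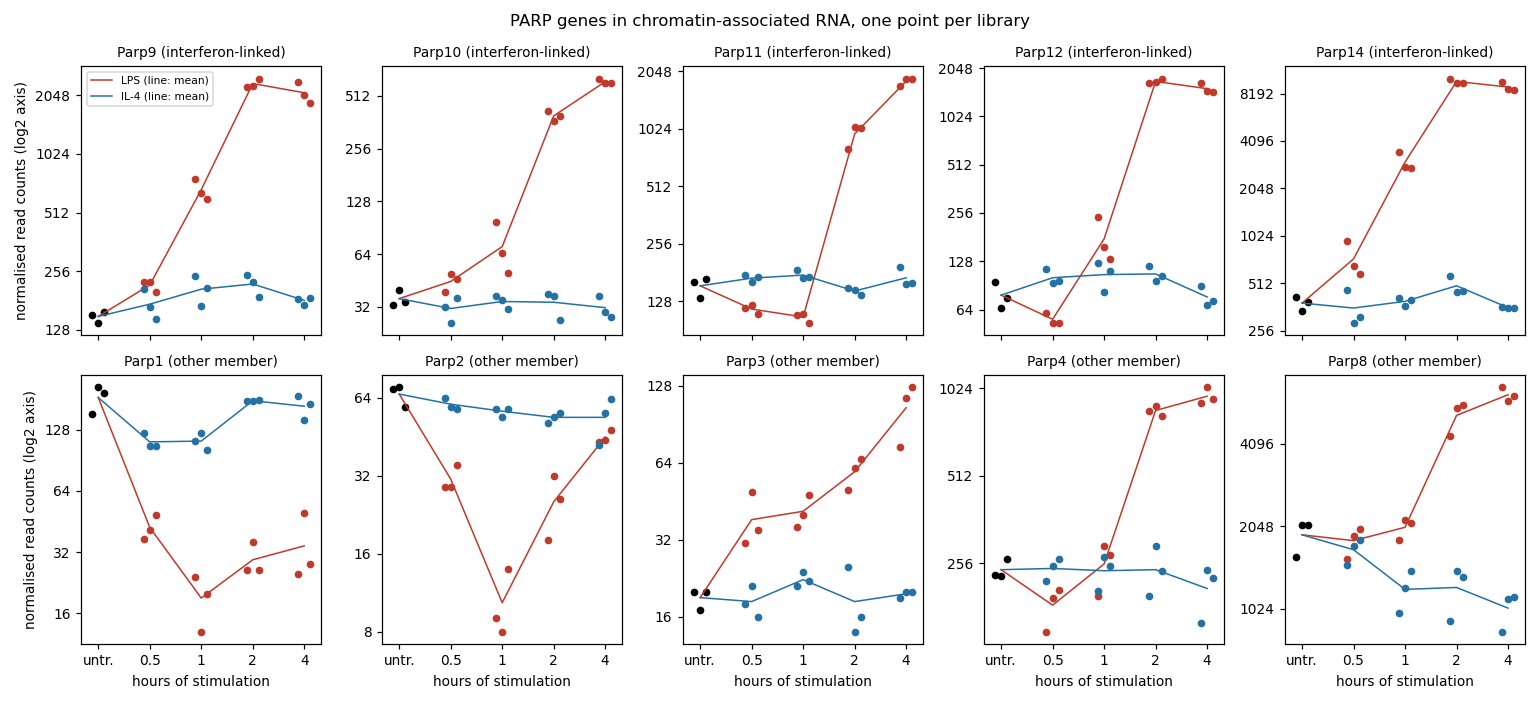
Normalised read counts (log2 axis) of the 10 PARP genes against hours of stimulation, one point per library, with untreated samples in black, LPS in red and IL-4 in blue and lines through the group means. The interferon-linked genes in the upper row all climb under LPS, Parp14 to between 8606 and 10196 counts at 2 and 4 h, whereas Parp1 and Parp2 drop to a minimum at 1 h.

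Parp14 encodes a macrodomain-bearing ADP-ribosyltransferase that has been described as a cofactor of STAT6. It lies on chr16 from 35832878 to 35871382 (- strand). Its normalised counts were 417, 342 and 391 in the untreated samples, and 944, 661 and 589 after 0.5 h of LPS. They reached 3477, 2786 and 2764 at 1 h, followed by 10196, 9607 and 9528 after 2 h and by 9696, 8721 and 8606 after 4 h. No LPS sample overlapped the untreated ones at any time, and the 2 h and 4 h samples overlapped each other. The gain was 0.91 ± 0.15 (SE) on the log2 scale at 0.5 h (limma adjusted p = 1.40e-04), 2.97 ± 0.15 at 1 h and 4.67 ± 0.15 at 2 h (adjusted p = 1.12e-12), a 25.5-fold rise. Parp14 had the largest rise of the 10 members at 1, 2 and 4 h.

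Parp9 and its partner gene Dtx3l, which encodes an E3 ubiquitin ligase, lie head to head on chr16. Parp9 spans 35938470 to 35972621 on the + strand and shares 558 bases with Dtx3l (35926515 to 35939027, - strand). Parp9 had 153, 139 and 157 normalised counts in untreated cells, 226, 225 and 200 at 0.5 h, 763, 646 and 604 at 1 h, followed by 2272, 2295 and 2499 after 2 h and by 2406, 2057 and 1877 after 4 h of LPS. Each LPS group stood above the untreated samples, and 2 h and 4 h overlapped. The rise was 0.53 ± 0.12 (SE, log2) at 0.5 h (limma adjusted p = 0.00146), 2.15 ± 0.12 at 1 h (adjusted p = 5.94e-10) and 3.97 ± 0.12 at 2 h (adjusted p = 4.70e-13). The 0.5 h rise was not called without replicate 2 (0.45, adjusted p = 0.0828) or with equal totals (0.02). Dtx3l had 51, 53 and 53 counts in untreated cells and 39, 48 and 32 at 0.5 h, then 281, 211 and 185 at 1 h, followed by 764, 647 and 776 after 2 h and by 742, 732 and 722 after 4 h. At 0.5 h, Parp9 was above and Dtx3l below their untreated samples. The strand used in counting is not stated, so reads of the shared bases cannot be assigned to either gene. This holds too for Gm15564, a non-coding gene opposite to 5871 bases of Parp9, whose mean went from 27 in untreated cells to 287 at 4 h of LPS.

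Parp12 (chr6, 39086412 to 39118349, - strand) encodes a zinc finger ADP-ribosyltransferase that is known to restrict the growth of some viruses. It had 95, 65 and 76 normalised counts in untreated cells, 61, 53 and 53 at 0.5 h, 240, 157 and 132 at 1 h, followed by 1641, 1669 and 1761 after 2 h and by 1645, 1472 and 1454 after 4 h. All 3 samples were below the untreated ones at 0.5 h and above them from 1 h on. The change was -0.48 ± 0.18 (SE, log2) at 0.5 h (limma adjusted p = 0.0390), 1.13 ± 0.18 at 1 h (adjusted p = 7.62e-05) and 4.42 ± 0.18 at 2 h (adjusted p = 1.41e-11), a 21.5-fold rise. The early dip was not called without replicate 2 (-0.57, adjusted p = 0.121), without replicate 3 (-0.46, adjusted p = 0.161) or after median-of-ratios rescaling (-0.23).

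Parp10 (chr15, 76232995 to 76243440, - strand) encodes a mono-ADP-ribosyltransferase. Its normalised counts were 33, 40 and 34 untreated and 39, 49 and 46 at 0.5 h, which overlapped. They then reached 97, 65 and 50 at 1 h, followed by 418, 367 and 395 after 2 h and by 642, 605 and 602 after 4 h, with no overlap between consecutive times. The change was 0.32 ± 0.19 (SE, log2) at 0.5 h (limma adjusted p = 0.178), 0.92 ± 0.19 at 1 h, 3.43 ± 0.19 at 2 h and 4.08 ± 0.19 at 4 h (adjusted p = 4.75e-11). At 4 h it was 16.9-fold above untreated. The 0.5 h difference was called after median-of-ratios rescaling (0.56, adjusted p = 0.0299), and the 1 h gain was not called with equal totals (0.35, adjusted p = 0.102).

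Parp11 (chr6, 127446840 to 127494261, + strand), another mono-ADP-ribosyltransferase, fell before it rose. It had 162, 134 and 167 normalised counts in untreated cells, 118, 122 and 110 at 0.5 h, 109, 110 and 99 at 1 h, followed by 803, 1050 and 1034 after 2 h and by 1714, 1868 and 1876 after 4 h. Both early groups were below every untreated sample and both late ones above. The change was -0.40 ± 0.13 (SE, log2) at 0.5 h (limma adjusted p = 0.0152), -0.53 ± 0.13 at 1 h (adjusted p = 0.00176), 2.63 ± 0.13 at 2 h and 3.56 ± 0.13 at 4 h (adjusted p = 2.41e-12). Without replicate 3, neither early fall was called (-0.29, adjusted p = 0.226, and -0.42, adjusted p = 0.0750), and the fall at 0.5 h was not called after median-of-ratios rescaling either (-0.14). The 1 h fall was then -0.27 (adjusted p = 0.0583). The non-coding gene Gm34148, which lies within Parp11 on the other strand over 1176 bases near its upstream start, went from a mean of 0.333 to 43.0 at 4 h.

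The other 5 members moved in different directions under LPS. Parp1, whose product is the main producer of poly(ADP-ribose) at DNA breaks, fell at every time. It lies on chr1 from 180568891 to 180600999 (+ strand). Its normalised counts were 153, 207 and 194 in untreated cells, 37, 41 and 49 at 0.5 h, 24, 13 and 20 at 1 h, followed by 26, 36 and 26 after 2 h and by 25, 50 and 28 after 4 h. All LPS samples lay below all untreated ones. It fell by 2.1 ± 0.28 (SE, log2) at 0.5 h (limma adjusted p = 1.36e-05), then fell by 3.24 ± 0.28 at 1 h (adjusted p = 7.85e-08) and by 2.45 ± 0.28 at 4 h (adjusted p = 1.34e-06). At 1 h it was 9.47-fold lower.

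Parp2 (chr14, 50807916 to 50821301, + strand), the closest relative of Parp1 in DNA repair, fell to a minimum at 1 h and then rose. It had 69, 70 and 59 normalised counts untreated, 29, 29 and 35 at 0.5 h, 9, 8 and 14 at 1 h, followed by 18, 32 and 26 after 2 h and by 43, 44 and 48 after 4 h of LPS. The samples at every time were below the untreated ones. It fell by 2.60 ± 0.24 (SE, log2) at 1 h (limma adjusted p = 2.32e-07), and the difference from untreated was -0.54 ± 0.24 at 4 h (adjusted p = 0.0643). This difference was called with equal totals (-1.14, adjusted p = 7.29e-04), with a pseudocount of 8 (-0.48, adjusted p = 0.0317) and with sample weights (-0.52, adjusted p = 0.0333).

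Parp3 (chr9, 106470322 to 106476949, - strand), which acts at DNA breaks as well, rose. Its normalised counts were 20, 17 and 20 untreated, 31, 49 and 35 at 0.5 h, 36, 40 and 48 at 1 h, followed by 50, 61 and 66 after 2 h and by 74, 115 and 126 after 4 h. Every LPS sample was above every untreated one, and 0.5 h and 1 h overlapped. The gain was 0.95 ± 0.23 (SE, log2) at 0.5 h (limma adjusted p = 0.00278) and 2.37 ± 0.23 at 4 h (adjusted p = 2.65e-07). Without replicate 2, the 0.5 h gain was 0.69 and was not called (adjusted p = 0.116), and with equal totals neither it (0.46, adjusted p = 0.102) nor the 1 h gain of 1.08 (then 0.51, adjusted p = 0.0639) was called.

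Parp4 (chr14, 56575619 to 56659798, + strand) encodes the PARP of vault particles, large ribonucleoprotein shells of the cytoplasm. It had 234, 232 and 264 normalised counts untreated, 149, 195 and 207 at 0.5 h, 197, 294 and 273 at 1 h, followed by 859, 894 and 826 after 2 h and by 914, 1032 and 942 after 4 h. The samples were below untreated at 0.5 h, overlapped at 1 h and were above from 2 h. The change was -0.42 ± 0.15 (SE, log2) at 0.5 h (limma adjusted p = 0.0305), 0.05 ± 0.15 at 1 h (adjusted p = 0.802) and 1.82 ± 0.15 at 2 h (adjusted p = 4.18e-08). The early fall was not called without replicate 2 (-0.50, adjusted p = 0.0962), without replicate 3 (-0.45, adjusted p = 0.125) or after median-of-ratios rescaling (-0.16), and the 1 h value turned to -0.53 when all samples were given equal totals. Its antisense neighbour Gm16573, opposite to 13253 bases of it, went from a mean of 34.7 to 154 at 4 h.

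Parp8 (chr13, 116850844 to 117025531, - strand), a less studied member and the longest of the 10 genes, had 1575, 2071 and 2068 normalised counts untreated, 1555, 1891 and 1997 at 0.5 h, 1817, 2163 and 2107 at 1 h, followed by 4377, 5533 and 5654 after 2 h and by 6560, 5834 and 6120 after 4 h of LPS. The 0.5 h and 1 h samples overlapped the untreated ones, and those at 2 h and 4 h were above them. It rose by 1.45 ± 0.14 (SE, log2) at 2 h (limma adjusted p = 2.50e-07) and by 1.71 ± 0.14 at 4 h (adjusted p = 3.75e-08), 3.26-fold above untreated. The early values depended on the scaling. With equal totals, Parp8 was called lower at 0.5 h (-0.58, adjusted p = 0.00231) and at 1 h (-0.48, adjusted p = 0.00675, against 0.10 as deposited), whereas after median-of-ratios rescaling it was called higher at 1 h (0.36, adjusted p = 0.0207).

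Counted over the 10 members, 3 were higher and 5 lower than untreated at 0.5 h of LPS, against 19.6% and 34.4% of all tested genes. At 1 h, 5 were higher and 3 lower (24.8% and 39.0% of all genes). At 2 h, 8 were higher and 2 lower (26.9% and 39.0%). At 4 h, 8 were higher and 1 lower (25.9% and 37.6%). Without replicate 2, the 8 calls at 0.5 h became 4, and without replicate 3 they became 5. At 2 h, all 10 members were called without any of the 3 replicates in turn. The early balance depended on the scaling. With equal totals, the 0.5 h calls were 1 rise and 6 falls, and those of 1 h were 3 rises and 5 falls. After median-of-ratios rescaling, the 0.5 h calls were 4 rises and 2 falls, and those of 1 h were 6 rises and 2 falls. At 2 h and 4 h, 8 members were higher under both rescalings.

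**Figure D2:**
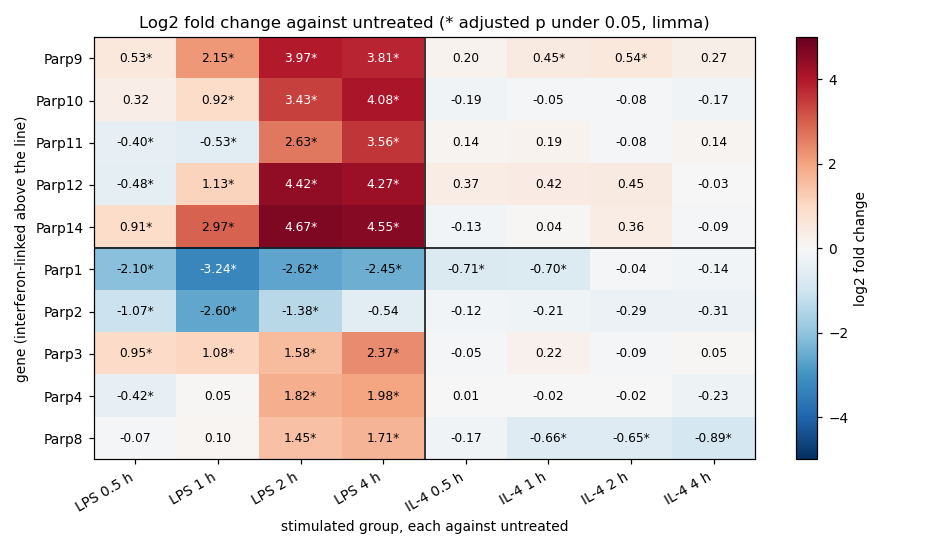
Log2 fold change of each member (rows, interferon-linked genes above the line) in each stimulated group against untreated (columns), with the colour scale in log2 units and an asterisk where the limma adjusted p was under 0.05. Under LPS, changes run from -3.24 for Parp1 at 1 h to 4.67 for Parp14 at 2 h, and under IL-4 they lie between -0.89 and 0.54.

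The interferon-linked genes did not rise in step. As a share of each gene's highest LPS group mean, Parp14 had reached 30.8% ± 4.15 (SD, n = 3) at 1 h and Parp9 28.5% ± 3.5, against 11.5% ± 3.90 for Parp10, 10.4% ± 3.34 for Parp12 and 5.83% ± 0.334 for Parp11. Parp9, Parp12 and Parp14 had their highest mean at 2 h, and Parp10 and Parp11 had theirs at 4 h, with 63.8% ± 4.14 and 52.9% ± 7.60 reached at 2 h. Of the rest, Parp4 had reached 26.5% ± 5.30 and Parp8 32.9% ± 3.01 of their 4 h means at 1 h, close to their untreated shares of 25.3% ± 1.86 and 30.9% ± 4.63.

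**Figure D3:**
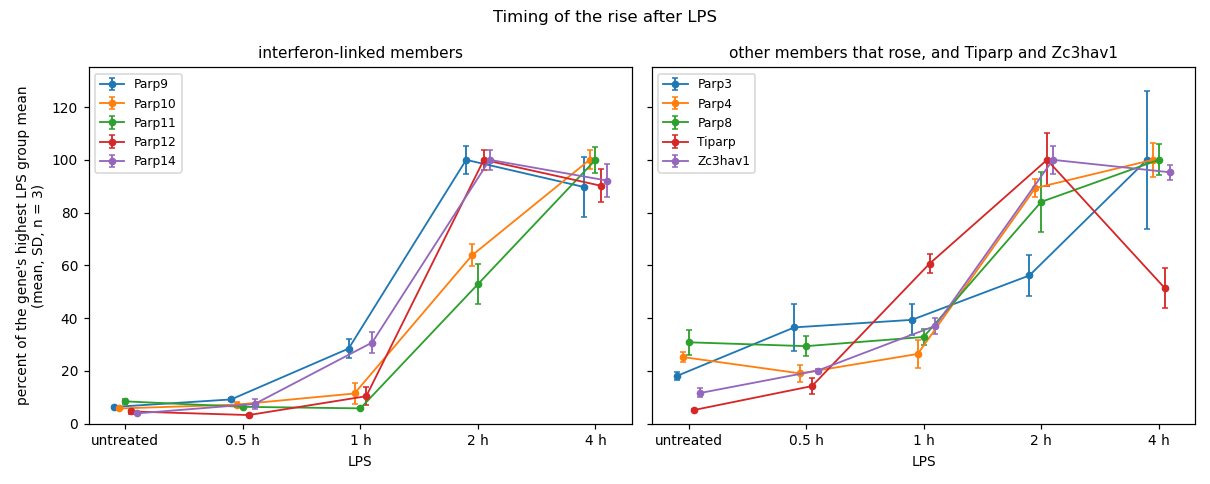
Mean of each gene in untreated cells and at each time of LPS as a percent of its own highest LPS group mean (error bars are SD, n = 3). Parp9 and Parp14 are near 30% at 1 h, whereas Parp11 declines from 8.48% in untreated cells to 5.83% at 1 h before it climbs, and Tiparp is already at 60.6% at 1 h.

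Between consecutive times, 7 of the 10 members changed from 0.5 h to 1 h of LPS (49.7% of all genes). Parp4, Parp9, Parp10, Parp12 and Parp14 rose in that step, Parp14 by 2.06 ± 0.15 (SE, log2, limma adjusted p = 5.47e-08), and Parp1 and Parp2 fell. From 1 h to 2 h, 8 members changed, all upwards (43.3% of all genes). The gains in that step were 3.30 ± 0.18 for Parp12 and 3.16 ± 0.13 for Parp11, against 1.71 ± 0.15 for Parp14 and 1.82 ± 0.12 for Parp9. Parp1 (0.63 ± 0.28, adjusted p = 0.0812) and Parp3 (0.50 ± 0.23, adjusted p = 0.0947) were the exceptions, and Parp3 was called with the replicate number as a block (adjusted p = 0.0450). From 2 h to 4 h, 4 members changed (22.9% of all genes), and all of them rose. Parp11 gained 0.93 ± 0.13 (adjusted p = 7.55e-05), Parp2 0.84 ± 0.24, Parp3 0.79 ± 0.23 and Parp10 0.65 ± 0.19 (adjusted p = 0.0221). Parp9, Parp12 and Parp14 had changes of -0.16, -0.15 and -0.12, none of which was called. Without replicate 2, and likewise without replicate 3, 1 member was called in this last step instead of 4.

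IL-4 moved the family far less. The F test called 3 of the 10 members over the IL-4 course, where it called 40.3% of all genes: Parp1 (limma adjusted p = 4.60e-04), Parp8 (adjusted p = 0.00581) and Parp9 (adjusted p = 0.0468). The Parp9 course call was lost after either rescaling, without a filter and without any 1 of the 3 replicates. That of Parp8 was lost without replicate 2 (adjusted p = 0.146) or 3 (adjusted p = 0.110), and that of Parp1 without replicate 3 (adjusted p = 0.0845). With the replicate number as a block, 5 were called, Parp12 (adjusted p = 0.00102) and Parp14 (adjusted p = 0.00728) being added. By time, the members called were 1, 3, 2 and 1 from the earliest time to the latest, where 16.3%, 21.0%, 27.6% and 25.9% of all genes were called. With the block they were 2, 4, 4 and 1. The shares of all genes given here are of the fit without the block. None was taken with it, so the calls that the block added have no share to stand against. Without replicate 2 they were 0, 1, 0 and 0, and without replicate 3 they were 0, 0, 1 and 0. These comparisons use the same 3 untreated samples as those of LPS.

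Parp8 declined under IL-4. Its normalised counts, 1575, 2071 and 2068 in untreated cells, were 1479, 1735 and 1828 at 0.5 h, 991, 1218 and 1406 at 1 h, followed by 927, 1406 and 1341 after 2 h and by 846, 1115 and 1128 after 4 h. From 1 h on, every IL-4 sample was below every untreated one. It fell by 0.66 ± 0.18 (SE, log2) at 1 h (limma adjusted p = 0.0179), by 0.65 ± 0.18 at 2 h (adjusted p = 0.0162) and by 0.89 ± 0.18 at 4 h (adjusted p = 0.00248), 1.85-fold below untreated. Replicate 1 was the lowest of the 3 in each of these groups and in the untreated group, and every sample was below the untreated sample of its own number. Fitted with the replicate block, the limma adjusted p was 3.44e-06 at 1 h, 3.57e-06 at 2 h and 1.65e-07 at 4 h. In fits without the block, leaving out replicate 2 gave falls of -0.61, -0.69 and -0.88 (adjusted p = 0.230, 0.132 and 0.0710), and leaving out replicate 3 gave -0.72, -0.66 and -0.89 (adjusted p = 0.122, 0.124 and 0.0535), none of them called. Without replicate 1, all 3 were called.

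Parp1 dipped and returned. It had 123, 106 and 106 normalised counts at 0.5 h of IL-4 and 113, 123 and 102 at 1 h, all below the 153, 207 and 194 of untreated cells. At 2 h it had 178, 177 and 179 and at 4 h 187, 143 and 172, which overlapped untreated. It fell by 0.71 ± 0.13 (SE, log2) at 0.5 h (limma adjusted p = 0.00142) and by 0.70 ± 0.13 at 1 h (adjusted p = 0.00118), and the step from 1 h to 2 h was a rise of 0.66 ± 0.13 (adjusted p = 0.00510). Without replicate 3, the falls were -0.64 (adjusted p = 0.102) and -0.59 (adjusted p = 0.0997), and without replicate 2 the fall at 0.5 h was -0.59 (adjusted p = 0.0657). Without replicate 1, the 4 h difference of -0.14 became -0.35 and was called (adjusted p = 0.0453).

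Parp9 was the interferon-linked member called over the IL-4 course and against untreated in the fit without the block. It had 206, 167 and 146 normalised counts at 0.5 h, 242, 169 and 209 at 1 h, followed by 244, 226 and 189 after 2 h and by 184, 172 and 187 after 4 h, against 153, 139 and 157 untreated. The samples at 1, 2 and 4 h were all above the untreated ones. It rose by 0.45 ± 0.15 (SE, log2) at 1 h (limma adjusted p = 0.0423) and by 0.54 ± 0.15 at 2 h (adjusted p = 0.0125), 1.46-fold. The 1 h call was lost without any 1 of the 3 replicates (0.35 to 0.53) and after either rescaling (0.41 and 0.35), and the 2 h call was lost without replicate 2 (0.47, adjusted p = 0.156).

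Against untreated, Parp12 and Parp14 were called under IL-4 with the replicate block and not in the same fit without it. With sample weights and no block, both were called at 2 h (limma adjusted p = 0.0244 and 0.0327). From 0.5 h to 2 h of IL-4, Parp14 rose by 0.49 (log2) in the fit without the block (limma adjusted p = 0.0267). Parp12 had 114, 93 and 96 normalised counts at 0.5 h, 124, 82 and 111 at 1 h, followed by 120, 96 and 104 after 2 h and by 90, 68 and 72 after 4 h, and its 2 h samples were above the untreated ones. Its differences from untreated were 0.37, 0.42 and 0.45 on the log2 scale at 0.5, 1 and 2 h, with limma adjusted p = 0.199, 0.122 and 0.0816 without the block and 0.0133, 0.00469 and 0.00238 with it. Parp14 had 567, 454 and 460 at 2 h, above the untreated samples, and the difference was 0.36 (adjusted p = 0.0946, and 0.0136 with the block). Without replicate 1, Parp12 at 2 h was 0.50 (adjusted p = 0.0284), Parp14 at 2 h was 0.32 (adjusted p = 0.0144) and Parp14 at 0.5 h was -0.28 (adjusted p = 0.0404).

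For the members not called against untreated under IL-4 in the fit without the block, the intervals at 4 h bound the change at that time only. At 4 h, the 95% interval of the log2 difference from untreated was -0.56 to 0.22 for Parp10, -0.08 to 0.36 for Parp11, -0.41 to 0.35 for Parp12, -0.41 to 0.23 for Parp14, -0.39 to 0.49 for Parp3, -0.60 to 0.13 for Parp4 and -0.61 to -0.01 for Parp2. Each of these excludes the change that the same gene had after 4 h of LPS, except that of Parp2 (-0.54 under LPS). Between consecutive IL-4 times, 0, 1 and 0 members were called by limma from 0.5 to 1 h, 1 to 2 h and 2 to 4 h (7.82%, 9.40% and 5.48% of all genes). At an unadjusted p under 0.05 there were 1, 2 and 3, and with the block 1, 3 and 3 were called. The shares of all genes are again of the fit without the block. Parp8 was the member called by the block in the first step (-0.49, adjusted p = 2.80e-04), and Parp8, Parp12 and Parp14 fell in the last (-0.24, -0.48 and -0.45). In the step from 1 to 2 h, the block added Parp11 (-0.27, adjusted p = 0.0414) and Parp14 (0.32, adjusted p = 0.0486) to Parp1.

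Compared directly at the same time, LPS and IL-4 differed for 9 of the 10 members at 0.5 h (53.8% of all genes), 9 at 1 h (64.5%), 10 at 2 h (68.6%) and 9 at 4 h (68.0%). The exceptions were Parp8 at 0.5 h, Parp4 at 1 h and Parp2 at 4 h, and each was called under a rescaling. Parp8 at 0.5 h was 0.36 (adjusted p = 0.0413) after median-of-ratios rescaling, and Parp2 at 4 h was -0.84 (adjusted p = 6.15e-04) with equal totals, against -0.23 as deposited. Parp8 was the member whose called changes went opposite ways. It was 2.1 ± 0.16 (SE, log2) higher with LPS than with IL-4 at 2 h (limma adjusted p = 6.12e-11) and 2.59 ± 0.16 higher at 4 h (adjusted p = 1.17e-12). The interferon-linked genes were higher with LPS by between 2.71 and 4.31 at 2 h and by between 3.42 and 4.64 at 4 h. Parp11 was lower with LPS at 0.5 h (-0.53 ± 0.11) and at 1 h (-0.72 ± 0.11). The differences at 0.5 h for Parp9 (0.34), Parp10 (0.50) and Parp4 (-0.43) were not called without replicate 2 (adjusted p = 0.265, 0.412 and 0.111) or without replicate 3 (adjusted p = 0.222, 0.0519 and 0.161), and that of Parp3 at 1 h (0.85) was not called without replicate 3 (0.73, adjusted p = 0.0714). With equal totals, Parp4 at 1 h turned from 0.07 to -0.41 (adjusted p = 0.0358) and Parp9 at 0.5 h from 0.34 to -0.04, and after median-of-ratios rescaling Parp4 at 1 h was called higher (0.36, adjusted p = 0.0407). Equal totals also ended the 1 h calls of Parp8 (0.28, adjusted p = 0.125), Parp12 (0.23, adjusted p = 0.258) and Parp3 (0.39, adjusted p = 0.131) and the 0.5 h call of Parp10 (0.13, adjusted p = 0.576). The 0.5 h call of Parp4 was lost after median-of-ratios rescaling (-0.17).

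Other genes of the family were counted as a list of 6. After 4 h of LPS, 2 were higher and 3 lower (limma, against 25.9% and 37.6% of all genes), with a median of -0.14. Tiparp, the PARP gene induced by dioxin through the aryl hydrocarbon receptor, had 167, 152 and 176 normalised counts untreated and 562, 415 and 372 at 0.5 h of LPS. It then had 1921, 1790 and 2022 at 1 h, followed by 3464, 2833 and 3159 after 2 h and by 1354, 1692 and 1822 after 4 h. It was thus at 60.6% ± 3.69 of its highest mean at 1 h and back at 51.5% ± 7.66 at 4 h. Under IL-4 Tiparp rose at 0.5 h (271, 302 and 230 counts, 0.69 ± 0.18 on the log2 scale, adjusted p = 0.0154) and was below untreated at 4 h (137, 86 and 88 counts, -0.70 ± 0.18, adjusted p = 0.00981). Zc3hav1, which encodes the antiviral zinc finger protein ZAP, had 283, 278 and 358 counts untreated and 2592, 2455 and 2461 at 4 h of LPS, a rise of 3.04 ± 0.11. Parp6 had 182, 160 and 154 untreated and 54, 46 and 62 at 4 h. Parp16 had 10, 18 and 13 untreated and 1, 3 and 2 at 4 h. Under IL-4, 3, 0, 3 and 3 of the 6 were called from 0.5 h to 4 h in order of time, and 1 had an unadjusted p under 0.05 at 1 h. Of all genes, 16.3%, 21.0%, 27.6% and 25.9% were called at these times. The tankyrase gene Tnks2 was lower by 0.49 at 4 h of LPS, where the difference of Tnks was 0.21 (adjusted p = 0.0784).

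Among partners and enzymes that remove ADP-ribose, 8 of 9 listed genes were tested, and 2 were higher and 3 lower at 4 h of LPS (median -0.56), close to the 25.9% and 37.6% of all genes. Dtx3l rose by 3.78 ± 0.16 (SE, log2) and Adprh, an ADP-ribosylarginine hydrolase gene, by 1.11 ± 0.18. Parg, the gene of the main enzyme that degrades poly(ADP-ribose), was lower by 0.71 ± 0.12, Macrod2 by 1.61 ± 0.58 and Macrod1 by 3.78 ± 0.24, with 114, 106 and 138 counts untreated and 10, 5 and 9 at 4 h. Hpf1, the cofactor of PARP1 for modifying serines, had 0.06 (limma adjusted p = 0.840). Under IL-4, 0, 1, 0 and 0 of these genes were called at the 4 times (1, 4, 1 and 0 at an unadjusted p under 0.05), where 16.3%, 21.0%, 27.6% and 25.9% of all genes were.

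Of 11 genes of NAD supply and use, 9 were tested, and 3 were higher and 4 lower at 4 h of LPS (median -0.55), where 25.9% and 37.6% of all genes were. Nampt, the rate-limiting enzyme gene of NAD salvage, had 317, 293 and 294 counts untreated and 2599, 2597 and 2782 at 4 h, a rise of 3.14 ± 0.21 (SE, log2). Cd38 and Bst1, genes of enzymes that consume NAD, rose from 6, 5 and 4 to 591, 482 and 519 counts and from 2, 1 and 0 to 74, 163 and 186 counts. Nmnat3, Naprt, Nadsyn1 and Nmrk1, all of NAD synthesis, were lower. Under IL-4, 2, 1, 1 and 1 genes of this list were called in order of time (2, 2, 2 and 2 at an unadjusted p under 0.05). Of all genes, 16.3%, 21.0%, 27.6% and 25.9% were called at these times. Nampt was the gene of this list called at 4 of 4 IL-4 times, with 0.74 ± 0.09 at 0.5 h and 0.66 ± 0.09 at 4 h.

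Of 6 genes of the repair of single-strand breaks, 1 was higher (Polb, 0.94 ± 0.20, SE, log2) and 3 lower at 4 h of LPS, with a median of -0.54, where 25.9% and 37.6% of all genes were called. Xrcc1, the scaffold that binds poly(ADP-ribose), had 37, 54 and 54 counts untreated and 19, 13 and 15 at 4 h. Chd1l, the remodeller activated by PARP1, was lower by 2.49 ± 0.31 and Aplf by 0.99 ± 0.25. Under IL-4, 2, 0, 0 and 1 genes of this list were called in order of time (3, 1, 0 and 2 at an unadjusted p under 0.05), against the same 16.3% to 27.6% of all genes.

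The interferon route was counted as 9 genes of the induction of interferon beta or of the response to it. At 4 h of LPS, 7 were higher and 0 lower (median 1.66), and none of the other 2 had an unadjusted p under 0.05. One of these was Ifnb1, which had no counts in either group. Of all genes, 25.9% were higher and 37.6% lower. Ifnb1 was at 0 in all untreated and IL-4 samples, at 10, 2 and 3 counts after 0.5 h of LPS, at 17, 16 and 5 at 1 h, at 2, 1 and 0 at 2 h and at 0 again at 4 h. At 1 h it was at least 4.22-fold higher than in untreated cells, taking a floor of 3 counts per library for these. In contrast, Irf7 (988, 1467 and 1557 counts) and Stat2 (3330, 3631 and 3491) were high at 4 h. Under IL-4, 2, 3, 3 and 3 of the 9 were called in order of time (4, 3, 4 and 6 at an unadjusted p under 0.05). Of all genes, 16.3%, 21.0%, 27.6% and 25.9% were called at these times. At 4 h of IL-4, Irf7 was higher by 1.82 ± 0.22 (SE, log2, limma adjusted p = 3.30e-05) and Stat2 by 0.72 ± 0.14, and Ifnar2 was lower by 0.53 ± 0.09. Whether interferon carried any change of the PARP genes was not tested.

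**Figure D4:**
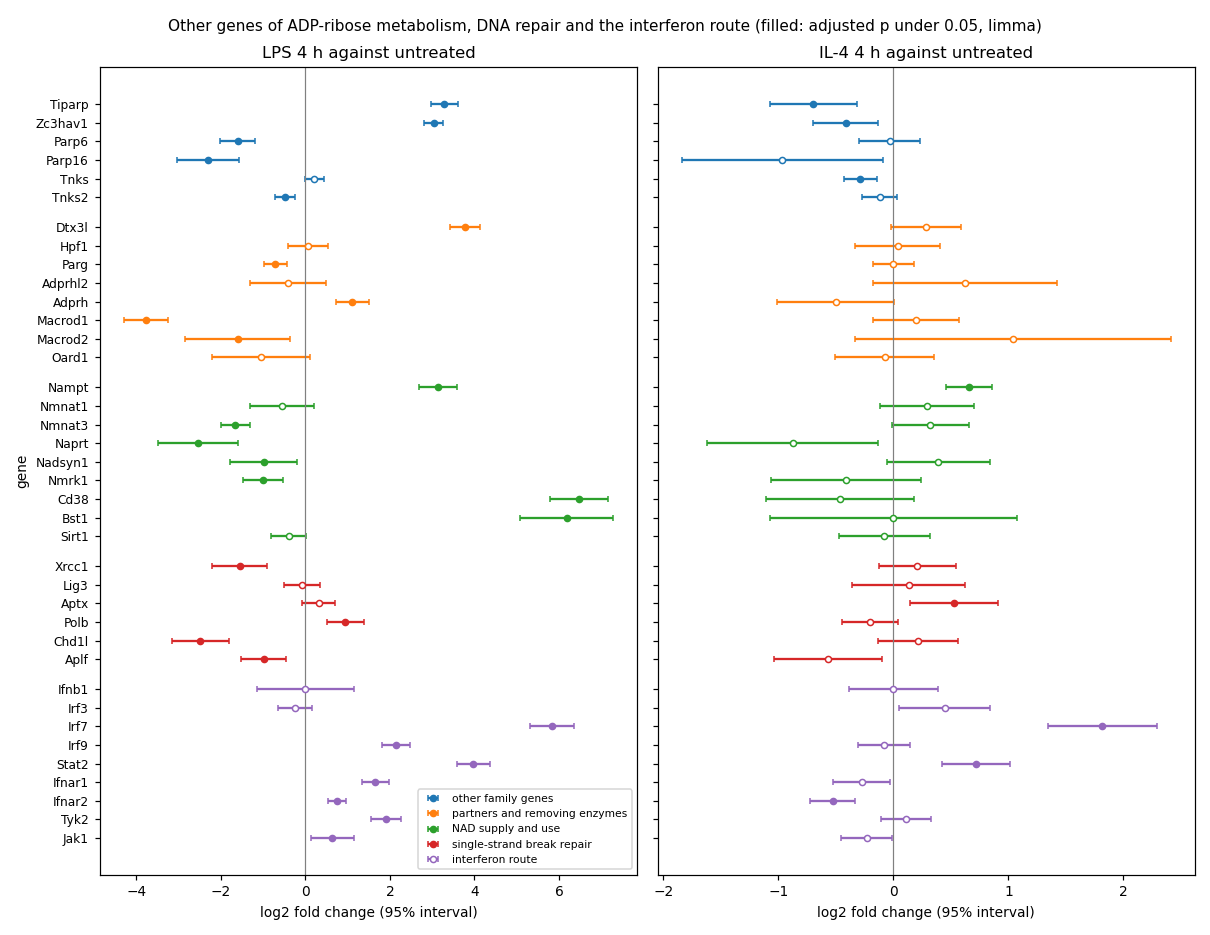
Log2 fold change with its 95% interval for the other genes of the family, partners and removing enzymes, NAD genes, repair genes and genes of the interferon route, at 4 h of LPS (left) and of IL-4 (right) against untreated. Filled points passed the limma adjusted p of 0.05, and the fitted values of Bst1, Naprt and Parp16 rest on counts at or under the floor in one of the groups. Ifnb1 had no counts in any of the groups shown, so its points measure no change.

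The genes whose 9 group means of log2(value + 1) were most like those of each member were sought among 6148 protein-coding genes whose mean was 50 normalised counts or more, as a description. For Parp10 these were Azi2 (r = 0.998) and Fhod3 (r = 0.997), for Parp12 Ccdc25 and Usp15 (both r = 0.997), for Parp14 Psme2 and Ccnd2 (both r = 0.996), for Parp9 Mapkbp1 and B3gnt2 (both r = 0.995) and for Parp11 H2-T24 (r = 0.994) and Cp (r = 0.991). For Parp4 they were Tgtp2 (r = 0.996) and Tmem219 (r = 0.994), for Parp8 Ptk2b (r = 0.995) and Dock11 (r = 0.994), for Parp3 Cd38 (r = 0.989) and Gca (r = 0.985), for Parp1 Rbm33 (r = 0.994) and Rab40c (r = 0.99) and for Parp2 Cep290 (r = 0.995) and Tti1 (r = 0.985). Within the family, Parp14 was most like Parp9 (r = 0.99), Parp4 was most like Parp12 (r = 0.988), and Parp1 was most like Parp2 (r = 0.851). The 9 means share libraries and are not independent, so these r values carry no test.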

How the data were processed

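Chromatin-associated RNA was sequenced from 27 libraries (SMART-seq2 with random primers, single-end reads). According to the study's methods and the submitters' processing notes, the authors aligned reads to mm10 with TopHat2 (version 2.1.1), removed multi-mapping reads and blacklisted regions with bedtools (version 2.29.2), counted reads per gene over the RefSeq annotation (GRCm38.p6) in R (version 3.6.2) and scaled the samples on invariant genes. The authors' notes also list DESeq2. The values the authors deposited are whole numbers on this normalised scale and were handled as a score, not as raw counts, which leaves the depth per sample unknown. The authors' counting strand and their use of DESeq2 are not given in the sources used here. Samples were grouped by their treatment labels, and every value column was assigned (0 left over).

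The log2(value + 1) scale was used for all tests, made in limma (version 3.58.1, R version 4.3.3) with a mean-variance trend, over all 13901 genes with at least 10 in at least 3 samples, with Benjamini-Hochberg adjustment and a threshold of 0.05. Each course was fitted on 15 samples and LPS against IL-4 on all 27. A fold change on this scale understates the change of low genes. The scripts were tested on simulated data. Same-numbered replicates deviated together, with correlations of 0.0897 to 0.680 over 12 comparisons of groups. Every pair was above 0.1 in 11 of these, the exception being untreated against LPS 4 h, so the number was taken to pair the samples in those 11 and fits with it as a block are given. Alternatives were the pseudocount (0.5, 8), the filter on low values (none, a mean of 50), 2 rescalings, the block, sample weights, replicates 2 and 3 averaged, and leaving out each replicate. The 10 members, the 5 lists of other genes and the rule for genes of like pattern (the 2 protein-coding genes with the highest Pearson r over group means, neither overlapping nor a member) were chosen with earlier results of these data known. Some genes of these lists are not reported here.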

Additional observations from a re-analysis of the deposited data

Results flagged for a closer look

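In the direct test between times of LPS, Parp4 differed by 2.23 on the log2 scale between 2 h and 0.5 h and by 2.40 between 4 h and 0.5 h, having been below untreated at 0.5 h and above it later. Parp11, below untreated at 0.5 h and 1 h, differed by 3.02 between 2 h and 0.5 h, by 3.95 between 4 h and 0.5 h, by 3.16 between 2 h and 1 h and by 4.09 between 4 h and 1 h. Parp12, below untreated at 0.5 h, differed by 1.60 between 1 h and 0.5 h, by 4.90 between 2 h and 0.5 h and by 4.75 between 4 h and 0.5 h. Parp8 was above untreated with LPS and below it with IL-4, and the stimuli differed by 2.1 at 2 h and by 2.59 at 4 h. The limma adjusted p of these 11 differences was at most 4.16e-06. It tests the difference between times or stimuli, not the falls below untreated. The early LPS falls of Parp4, Parp11 and Parp12 were not called without replicate 3 or after median-of-ratios rescaling. In fits without the block, the IL-4 falls of Parp8 were not called without replicate 2 or without replicate 3.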

How the results depend on the processing

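The rises of Parp9, Parp10, Parp11, Parp12 and Parp14 at 2 h and 4 h of LPS and the fall of Parp1 at all 4 times passed the threshold under all 12 alternatives, with Parp14 at 2 h between 4.01 and 4.91 and Parp1 at 1 h between -3.81 and -2.85. Against untreated and between the stimuli, the calls that were lost under any alternative were of changes of at most 1.08 on the log2 scale (Parp3 at 1 h of LPS), the early LPS falls of Parp4, Parp11 and Parp12 and the IL-4 changes among them. Parp1, Parp2 and Parp3 rest on few counts in some groups, and the raw depth that limits them is unknown.

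With equal totals, Parp4 at 1 h of LPS turned to -0.53 and against IL-4 to -0.41, Parp8 at 1 h of LPS to -0.48 and Parp9 at 0.5 h of LPS against IL-4 to -0.045. This rescaling moved the median of all genes at LPS from between -0.30 and -0.24 to between -0.91 and -0.73, and median-of-ratios rescaling moved it to between -0.06 and 0.00.

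Leaving out each replicate in turn, the number of PARP members changed at LPS 0.5 h ranged from 4 to 8, the number of PARP members changed from LPS 2 h to 4 h from 1 to 4, and the number of PARP members changed over the IL-4 course from 0 to 4. The number of PARP members changed at IL-4 0.5 h ranged from 0 to 2, of PARP members changed at IL-4 1 h from 0 to 2, of PARP members changed at IL-4 2 h from 0 to 4 and of PARP members changed at IL-4 4 h from 0 to 2. PARP members changed from IL-4 0.5 h to 1 h ranged from 0 to 2, PARP members changed from IL-4 1 h to 2 h from 0 to 1 and PARP members changed from IL-4 2 h to 4 h from 0 to 2. These fits have fewer samples.

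With replicates 2 and 3 averaged, PARP members changed at LPS 0.5 h were 5, PARP members changed from LPS 2 h to 4 h 1, PARP members changed over the IL-4 course 1, PARP members changed at IL-4 0.5 h, 1 h, 2 h and 4 h 0, 1, 0 and 0, and PARP members changed from IL-4 1 h to 2 h 0. Without a filter, PARP members changed at IL-4 1 h were 1 and PARP members changed at IL-4 2 h were 1, more genes being tested. With a mean of at least 50, PARP members changed from LPS 2 h to 4 h were 2, since Parp2 and Parp3 were then not tested. With sample weights, PARP members changed over the IL-4 course were 5, PARP members changed at IL-4 2 h 4, PARP members changed from IL-4 0.5 h to 1 h 1, PARP members changed from IL-4 1 h to 2 h 2 and PARP members changed from IL-4 2 h to 4 h 2. Apart from these constructions, the cause was not tested.

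With the replicate number as a block, PARP members changed over the IL-4 course were 5, PARP members changed at IL-4 0.5 h 2, PARP members changed at IL-4 2 h 4, PARP members changed from IL-4 0.5 h to 1 h 1, PARP members changed from IL-4 1 h to 2 h 3 and PARP members changed from IL-4 2 h to 4 h 3. For untreated against LPS 4 h, where the numbers were not taken as pairs, the block called Parp2 as well (adjusted p = 0.0494 against 0.0643 by limma without it). Beside these and the calls given with the results, the block changed no call of a member against untreated or between the stimuli.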
